A study of Mus musculus with 6 samples.

Results

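The enzymes that build cholesterol and fatty acids were compared, gene by gene, between miR-216a-/- and wild-type newborn mouse pancreas. The set is a fixed list of 35 genes out of the 35527 to which reads were summed, and all 35 passed the filter on low counts that left 15805 genes for testing. The list holds 18 sterol synthesis enzymes, the cholesterol carrier Stard4, 5 genes that control the pathway's transcription factors, 9 enzymes that make, elongate or desaturate fatty acids, and 2 genes that move cholesterol out of cells or lysosomes.

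Both groups were whole pancreas of C57BL/6 mice taken 1 day after birth, and each library was made from a separate donor mouse. The KO group (3 libraries) carries the miR-216a-/- genotype, and the WT group (3 libraries) is wild type. The labels do not say how the allele was made, nor do they name sex, litter or batch. RNA of the whole organ was made into mRNA libraries with a strand-preserving kit and read in bulk, so fewer cells of a type and less RNA per cell cannot be told apart in any value below.

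Cholesterol is made from acetyl-CoA through mevalonate, squalene and lanosterol, and the genes of these steps are the classical targets of the transcription factor SREBP2, encoded by Srebf2. Its relative SREBP1, encoded by Srebf1, acts mainly on genes of fatty acid synthesis. SCAP escorts both factors to the Golgi when sterols are scarce, INSIG proteins hold SCAP in the endoplasmic reticulum when sterols are plentiful, and oxysterols switch on export genes such as Abca1 through the LXR receptors. In the pancreas these lipids supply the membranes of growing cells and of the secretory pathway.

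The mature RNA that the KO genotype lacks is shown with its seed, bases 2 to 8, in capitals, as listed by RefSeq on GRCm38.p6 at chr11:28757018-28757039 on the plus strand. It is given because matches to this seed are referred to beside the results.
mmu-miR-216a-5p: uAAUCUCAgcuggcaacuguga

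The libraries held between 20565387 and 23028718 estimated reads. The transcripts quantified included 0 from Mir216a or its host transcript Gm12082, so the genotypes rest on the labels. Several libraries stood apart. KO 1 had 0.141 CPM (reads per 1000000, scaled by TMM) of the Y-linked gene Ddx3y, against 61.8 to 102 CPM in the other 5 libraries, and 0 to 2.83 CPM of the other Y-linked genes Eif2s3y, Kdm5d and Uty. WT 1 held 646 CPM of 10 hepatocyte markers, against 156 to 211 CPM in the KO libraries and 175 to 181 CPM in the other WT libraries. Most of the sum outside WT 1 was Ttr, at 129 to 195 CPM in KO and 145 to 163 CPM in WT. Alb, another of these markers, had 219 CPM in WT 1 and 6.41 to 15.1 CPM in the other 5 libraries. Erythroid markers were highest in KO 2 (4787 CPM) within KO and in WT 1 (5940 CPM) within WT. Acinar markers, which define the labelled tissue, took 227700 to 286000 CPM of the KO libraries and 180400 to 259400 CPM of the WT libraries.

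The first question was which steps of the 2 pathways differed between KO and WT pancreas. No gene of the pathway passed correction over all genes. With edgeR's quasi-likelihood test and Benjamini-Hochberg adjustment, 0 of the 35 genes had an adjusted p under 0.05, as did 0 of the 15805 genes tested (0%), and the smallest adjusted p anywhere was 0.205. Without adjustment, 9 of the 35 (25.7%) had p under 0.05 with a lower KO mean, where 7.0% of all tested genes did, and 3 (8.57%) had it with a higher KO mean, where 5.62% did. For 12 genes (34.3%) all KO libraries lay below all WT libraries, against 10.3% of tested genes, and for 3 (8.57%) they lay above, against 9.07%. The list was chosen with earlier results of these data known, so these shares describe the list and are not independent support for a difference. In DESeq2, 436 of 15805 genes (2.76%) had an adjusted p under 0.05, and 3 were on the list, Idi1, Hmgcs1 and Cyp51, while limma-voom called 2 genes and 0 of the list. The median log2 fold change, KO over WT, was -0.24 over the 35 genes and 0.01 over all tested genes.

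**Figure D1:**
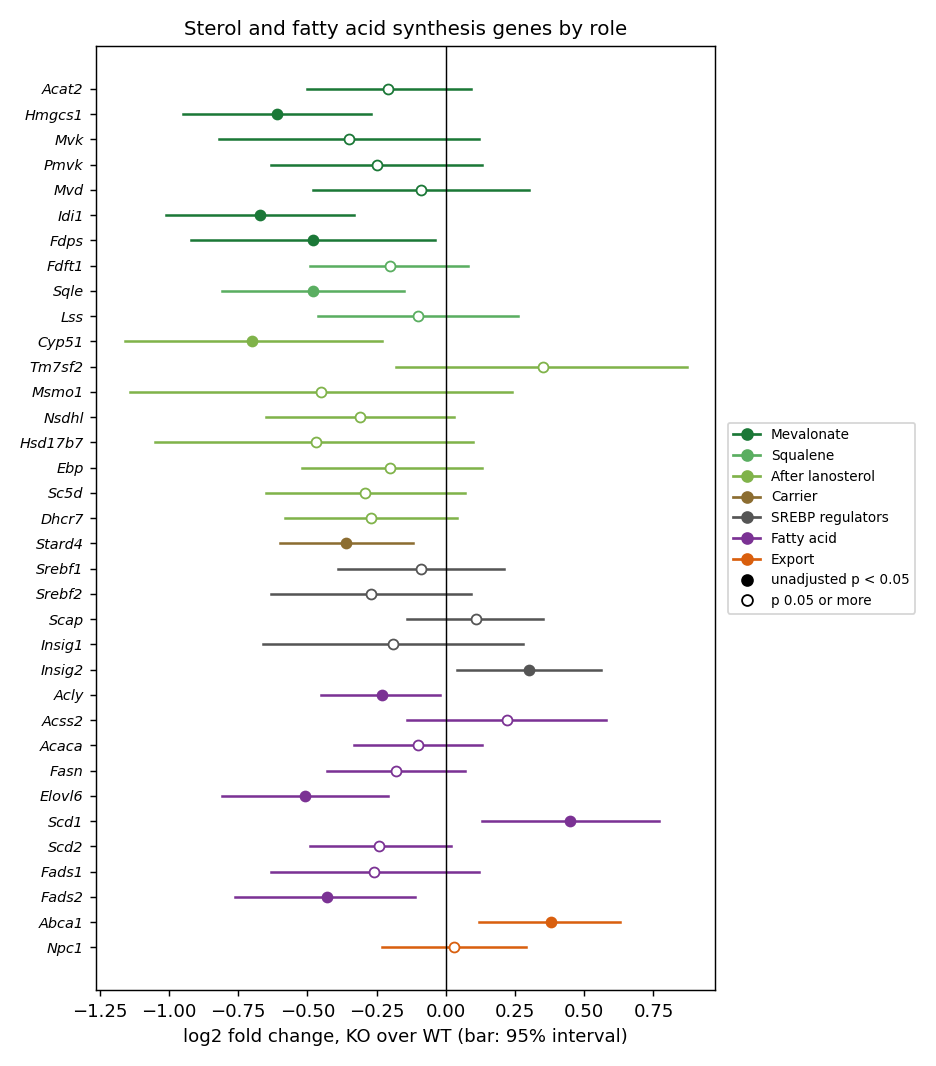
Log2 fold change of each of the 35 genes, KO over WT, on the horizontal axis, with 95% intervals derived from the edgeR fit as bars. Genes are ordered and coloured by role, and filled points have an unadjusted p under 0.05. Of the 18 sterol enzymes 17 lie left of 0, and Insig2, Scd1 and Abca1 are the filled points to the right.

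Sterol synthesis enzymes had lower means in KO almost throughout. Of the 18 enzymes 17 (94.4%) had a lower KO mean and 1 a higher one, with a median log2 fold change of -0.30. A lower KO mean was found for 48.8% of all tested genes. Unadjusted p was under 0.05 for 5 of them (27.8%), all lower in KO, against 7.0% of all tested genes. For 7 (38.9%) all KO libraries lay below all WT libraries, against 10.3% of tested genes. Among the 17, the KO mean ranged from 61.7% of the WT mean for Cyp51 to 93.9% for Mvd.

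All 7 enzymes of the mevalonate steps had a lower KO mean, with a median of -0.35. Idi1, which isomerizes isopentenyl diphosphate, had 11.3, 13.4 and 15.0 CPM in KO 1 to 3, against 18.2, 22.8 and 21.9 CPM in WT 1 to 3. Every KO library was below every WT library, and the log2 fold change was -0.67 ± 0.15 (SE; edgeR unadjusted p = 0.00192, adjusted p = 0.205; DESeq2 adjusted p = 0.0103). Hmgcs1, which makes HMG-CoA, had 38.9, 34.3 and 43.7 CPM in KO, against 47.9, 65.4 and 64.8 CPM in WT. The groups again did not overlap, although WT 1 lay closer to the KO libraries than to the other WT libraries, and the log2 fold change was -0.61 ± 0.15 (edgeR unadjusted p = 0.00332, adjusted p = 0.215; DESeq2 adjusted p = 0.0138). Fdps, farnesyl diphosphate synthase, had 12.9, 19.3 and 20.4 CPM in KO, against 20.2, 26.6 and 26.3 CPM in WT, so KO 3 and WT 1 were level. Its log2 fold change was -0.48 ± 0.19 (edgeR unadjusted p = 0.0373, adjusted p = 0.36). The unadjusted p was 0.05 or more without KO 1 (-0.30, edgeR unadjusted p = 0.0879), without WT 2 or WT 3 (-0.41 and unadjusted p = 0.111 in each) and with protein-coding transcripts only (-0.39, unadjusted p = 0.0782), and 26.7% of its exonic bases are shared with another annotated gene, Gm43738, on the same strand. The other 4 enzymes of these steps, the thiolase Acat2, the kinases Mvk and Pmvk and the decarboxylase Mvd, had log2 fold changes between -0.35 (Mvk, whose KO libraries all lay below WT) and -0.09 (Mvd), and unadjusted p between 0.121 and 0.602.

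The 3 enzymes from farnesyl diphosphate to lanosterol also had lower KO means. Sqle, squalene epoxidase and a controlled step of the pathway, had 16.9, 19.1 and 23.1 CPM in KO, against 24.1, 29.1 and 29.2 CPM in WT. All KO libraries were below all WT libraries, by a narrow margin between KO 3 and WT 1, and the log2 fold change was -0.48 ± 0.14 (edgeR unadjusted p = 0.00965, adjusted p = 0.258). Fdft1, squalene synthase, had 28.6, 30.1 and 36.4 CPM in KO, against 33.0, 36.6 and 40.0 CPM in WT. Lss, lanosterol synthase, had 13.8, 17.3 and 20.7 CPM in KO, against 17.7, 18.4 and 19.5 CPM in WT. Both overlapped, with unadjusted p of 0.14 for Fdft1 and 0.537 for Lss in edgeR, and KO 3 held the highest Lss value of all libraries.

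After lanosterol, 7 of 8 enzymes had a lower KO mean. Cyp51, the lanosterol demethylase, had 11.9, 13.9 and 18.4 CPM in KO, against 18.6, 26.4 and 26.7 CPM in WT. The groups did not overlap, but KO 3 and WT 1 were nearly equal, and the log2 fold change was -0.70 ± 0.20 (edgeR unadjusted p = 0.00836, adjusted p = 0.251; DESeq2 adjusted p = 0.0472). Nsdhl, a sterol dehydrogenase on the X chromosome, had 6.45, 5.69 and 6.63 CPM in KO, against 7.63, 7.54 and 8.16 CPM in WT. Dhcr7, the reductase that completes cholesterol in one branch, had 12.01, 14.6 and 13.0 CPM in KO, against 14.8, 15.1 and 17.9 CPM in WT. In both, each KO library lay below each WT library, with log2 fold changes of -0.31 and -0.27 and edgeR unadjusted p of 0.0677 and 0.0759. The oxidase Msmo1, the reductase Hsd17b7, the isomerase Ebp and the desaturase Sc5d overlapped between groups, at log2 fold changes from -0.47 to -0.20. Tm7sf2, a sterol reductase, was the 1 enzyme with a higher KO mean, from 8.95, 9.45 and 15.5 CPM in KO and 8.53, 8.30 and 9.92 CPM in WT. That difference came mainly from KO 3, did not pass (unadjusted p = 0.166 in edgeR), and concerns a gene that shares 12.1% of its exonic bases with Vps51 on the same strand.

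Promoter sequence of the 3 sterol enzymes with the smallest p that are in the RefSeq promoter table, and below them 2 fatty acid enzymes, is shown because these genes had the clearest lower values of their groups. Each runs 5′ to 3′ on the gene's strand, from 250 bases before the annotated start to 50 after it (GRCm38.p6). Capitals mark the letters searched on both strands, with 0 overlapping matches, namely CCAAT (the NF-Y box), GGGCGG (the GC box), CACGTG (the E-box) and TCACNCCAC (a form of the sterol response element). The windows are chr13:8885356-8885655 on the plus strand for Idi1, chr13:119690101-119690400 on the plus strand for Hmgcs1, chr5:4104648-4104947 on the minus strand for Cyp51, chr3:129532136-129532435 on the plus strand for Elovl6 and chr19:10101454-10101753 on the minus strand for Fads2.
Idi1: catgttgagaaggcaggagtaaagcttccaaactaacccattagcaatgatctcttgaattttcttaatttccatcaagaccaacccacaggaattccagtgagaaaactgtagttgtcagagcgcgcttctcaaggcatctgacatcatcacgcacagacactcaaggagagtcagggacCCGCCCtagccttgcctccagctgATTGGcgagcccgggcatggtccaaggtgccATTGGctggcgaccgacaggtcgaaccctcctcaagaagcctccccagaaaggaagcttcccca
Hmgcs1: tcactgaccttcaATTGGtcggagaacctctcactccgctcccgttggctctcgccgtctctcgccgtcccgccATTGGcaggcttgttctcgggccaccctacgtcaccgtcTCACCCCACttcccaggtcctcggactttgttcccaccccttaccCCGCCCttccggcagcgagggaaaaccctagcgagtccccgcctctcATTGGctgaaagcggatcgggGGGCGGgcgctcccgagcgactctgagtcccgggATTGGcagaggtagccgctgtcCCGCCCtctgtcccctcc
Cyp51: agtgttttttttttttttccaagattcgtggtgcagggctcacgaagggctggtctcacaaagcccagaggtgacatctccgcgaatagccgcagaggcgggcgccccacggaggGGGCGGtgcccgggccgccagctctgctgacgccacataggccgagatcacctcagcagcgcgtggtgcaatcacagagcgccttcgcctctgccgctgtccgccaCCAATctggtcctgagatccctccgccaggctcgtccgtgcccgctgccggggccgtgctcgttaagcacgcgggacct
Elovl6: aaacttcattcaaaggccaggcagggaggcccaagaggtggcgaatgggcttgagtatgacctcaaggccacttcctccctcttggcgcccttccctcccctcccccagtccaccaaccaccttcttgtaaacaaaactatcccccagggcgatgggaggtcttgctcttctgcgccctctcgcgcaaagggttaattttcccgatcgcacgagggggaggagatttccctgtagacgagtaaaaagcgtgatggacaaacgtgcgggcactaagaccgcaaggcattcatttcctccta
Fads2: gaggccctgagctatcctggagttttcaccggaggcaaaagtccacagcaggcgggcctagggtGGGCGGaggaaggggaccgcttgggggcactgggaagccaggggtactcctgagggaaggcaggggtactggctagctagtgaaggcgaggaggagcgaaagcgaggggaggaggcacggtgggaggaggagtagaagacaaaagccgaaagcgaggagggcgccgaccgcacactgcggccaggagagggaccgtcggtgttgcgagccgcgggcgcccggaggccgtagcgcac

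The Hmgcs1 window held TCACCCCAC 137 bases before the start, beside 4 CCAAT and 3 GGGCGG. Idi1 had 2 CCAAT and 1 GGGCGG, Cyp51 had 1 of each, Fads2 had 1 GGGCGG, and the Elovl6 window held 0 of the motifs. Of the 35 genes 27 were in the table. CCAAT was in the windows of 21 of them (77.8%), against 42.5% of tested genes, and GGGCGG in 23 (85.2%), against 64.5%. CACGTG was in 6 (22.2%), against 10.9% of tested genes, and TCACNCCAC in 1 (3.7%), against 1.35%. Over all 27025 genes of the table, whether tested or not, the shares were 41.1% for CCAAT, 38.2% for GGGCGG, 8.09% for CACGTG and 1.44% for TCACNCCAC. A match describes these letters and not binding.

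**Figure D2:**
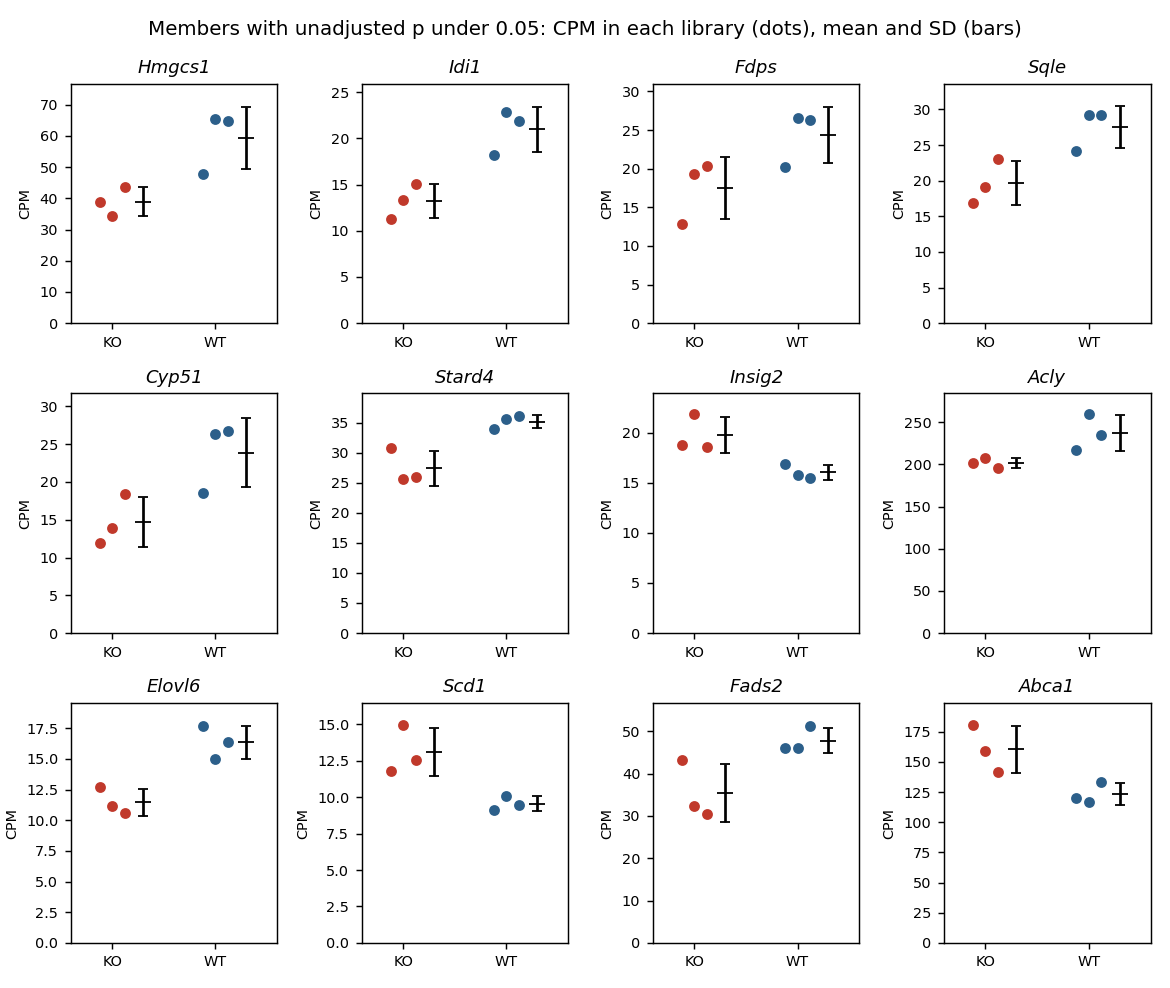
CPM (vertical axes, starting at 0) of the 12 genes with an unadjusted p under 0.05, 1 dot per library, KO left and WT right, in replicate order 1 to 3, with mean and SD beside the dots. Fdps is the 1 gene of the 12 whose groups overlap, and in Cyp51 the highest KO dot (18.4 CPM) nearly meets the lowest WT dot (18.6 CPM).

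Stard4, which carries cholesterol between membranes and is a sterol-regulated gene, had 30.8, 25.6 and 25.9 CPM in KO, against 33.9, 35.6 and 36.1 CPM in WT. All KO libraries lay below the tight WT group, and the log2 fold change was -0.36 ± 0.10 (edgeR unadjusted p = 0.00876, adjusted p = 0.251).

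Of the 5 genes that control the pathway, 3 had a lower KO mean and 2 a higher one, with a median of -0.09, and 1 had an unadjusted p under 0.05. Srebf2 had 42.7, 45.4 and 64.0 CPM in KO, against 56.8, 62.9 and 64.5 CPM in WT. KO 1 and KO 2 lay below WT and KO 3 within it, and the log2 fold change of -0.27 had a 95% interval from -0.63 to 0.09 (edgeR unadjusted p = 0.117). Leaving out 1 library moved it between -0.17 (without KO 1, edgeR unadjusted p = 0.326) and -0.48 (without KO 3, unadjusted p = 0.00183), and transcript lengths as an offset gave -0.38 (unadjusted p = 0.0355). Srebf1 had 52.0, 52.6 and 66.6 CPM in KO, against 55.2, 59.3 and 68.0 CPM in WT. These overlapped throughout, and the log2 fold change was -0.09, with a 95% interval from -0.39 to 0.21.

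Scap, the escort of both factors, had 46.2, 55.9 and 58.2 CPM in KO, against 48.7, 49.3 and 50.8 CPM in WT, with a 95% interval of the log2 fold change from -0.14 to 0.35. Insig1, itself an SREBP target, had 28.9, 42.5 and 49.2 CPM in KO, against 37.2, 49.9 and 50.6 CPM in WT. Both overlapped, and the interval for Insig1 ran from -0.66 to 0.28. Insig2, the second SCAP anchor, whose transcription does not depend on SREBP in the same way, had 18.8, 21.8 and 18.6 CPM in KO, against 16.9, 15.8 and 15.4 CPM in WT. Every KO library was above every WT library, at a log2 fold change of 0.30 ± 0.11 (edgeR unadjusted p = 0.0293, adjusted p = 0.33), and the unadjusted p was 0.05 or more without KO 2, without WT 2 or without WT 3 (0.078 to 0.113 in edgeR, log2 fold change 0.22 to 0.29). Per length the difference was larger, at 16.4 ± 3.71 TPM in KO and 10.4 ± 0.978 TPM in WT (SD, n = 3 each).

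The ratio of the 2 INSIG genes depended on the scale. On TPM, Insig2 over Insig1 was 1.24, 0.699 and 0.526 in KO, against 0.496, 0.395 and 0.418 in WT, and on CPM it was 0.651, 0.513 and 0.378 in KO, against 0.453, 0.316 and 0.305 in WT. The groups were apart on TPM (two-sided exact permutation p = 0.1, the smallest possible with 3 against 3) and overlapped on CPM (exact p = 0.2). The same held for Srebf1 over Srebf2, at 1.93, 2.01 and 1.86 in KO against 1.49, 1.55 and 1.62 in WT on TPM (exact p = 0.1), and at 1.22, 1.16 and 1.04 in KO against 0.973, 0.943 and 1.05 in WT on CPM (exact p = 0.2). These pairs were chosen after their values were seen.

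Enzymes of fatty acid synthesis also had mostly lower KO means. Of the 9, 7 (77.8%) had a lower KO mean and 2 a higher one, with a median log2 fold change of -0.23. Among all tested genes 48.8% had a lower KO mean. Unadjusted p was under 0.05 for 3 lower (33.3%) and 1 higher (11.1%), against 7.0% and 5.62% of all tested genes. All KO libraries lay below all WT libraries for 4 (44.4%) and above them for 1 (11.1%), against 10.3% and 9.07% of tested genes. The summed CPM of the 9 enzymes was 552 to 599 in KO, against 646 to 698 in WT, and did not overlap, whereas the sum of the 18 sterol enzymes was 242 to 304 CPM in KO, against 299 to 379 CPM in WT, and overlapped through KO 3 and WT 1. On TPM both sums overlapped, at 157 to 192 in KO against 184 to 233 in WT for fatty acids, and at 149 to 192 in KO against 181 to 239 in WT for sterols. The difference between the 2 groups of enzymes was not tested.

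Acly, which supplies cytosolic acetyl-CoA to both pathways, had 201, 208 and 196 CPM in KO, against 217, 260 and 235 CPM in WT. All KO libraries were below all WT libraries, at a small log2 fold change of -0.23 ± 0.09 (edgeR unadjusted p = 0.0361, adjusted p = 0.355). The unadjusted p was 0.05 or more in 4 of the 6 fits that left out 1 library, from 0.0733 without WT 3 to 0.153 without WT 2, where the log2 fold change was -0.16. Fasn, the fatty acid synthase, had 98.0, 96.7 and 116 CPM in KO, against 107, 118 and 128 CPM in WT. The groups overlapped, and the 95% interval of the log2 fold change, -0.43 to 0.07, includes the value of Acly. Acaca, the carboxylase before Fasn, and Acss2, which activates acetate, also overlapped, at -0.10 and 0.22.

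Elongation and desaturation held the larger differences. Elovl6, which extends palmitate, had 12.7, 11.1 and 10.6 CPM in KO, against 17.7, 15.0 and 16.4 CPM in WT. The groups were clearly apart, at a log2 fold change of -0.51 ± 0.13 (edgeR unadjusted p = 0.00418, adjusted p = 0.221). Fads2, a desaturase of polyunsaturated fatty acids, had 43.3, 32.4 and 30.5 CPM in KO, against 46.0, 46.1 and 51.3 CPM in WT. KO 1 lay near WT and the other KO libraries well below, and the log2 fold change of -0.43 ± 0.14 (edgeR unadjusted p = 0.0156, adjusted p = 0.275) was -0.60 without KO 1, with an adjusted p of 0.0362 in edgeR in a fit that called 362 of 16091 genes (2.25%). Its unadjusted p was 0.05 or more without KO 2 (-0.38, edgeR unadjusted p = 0.0525), without WT 3 (-0.37, unadjusted p = 0.0603) and without WT 1 and KO 2 together (-0.40, unadjusted p = 0.0765). Fads1, its neighbour on chromosome 19, overlapped, at -0.26 (unadjusted p = 0.153).

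The 2 stearoyl-CoA desaturases had differences of opposite sign. Scd1 had 11.8, 14.9 and 12.6 CPM in KO, against 9.14, 10.1 and 9.45 CPM in WT. All KO libraries were above all WT libraries, at a log2 fold change of 0.45 ± 0.14 (edgeR unadjusted p = 0.0117, adjusted p = 0.26). Scd2, the more abundant of the pair per length, had 144, 113 and 139 CPM in KO, against 161, 147 and 160 CPM in WT. Here all KO libraries were below all WT libraries, at -0.24 ± 0.11 (edgeR unadjusted p = 0.065, adjusted p = 0.436). Per length Scd1 stood at 3.62 ± 0.596 TPM in KO and 2.68 ± 0.719 TPM in WT, and Scd2 at 29.6 ± 5.78 TPM in KO and 34.2 ± 2.11 TPM in WT (SD, n = 3 each). Scd1 over Scd2 on CPM was 0.0815, 0.132 and 0.0902 in KO, against 0.057, 0.0689 and 0.059 in WT, which do not overlap (exact permutation p = 0.1, two-sided, the smallest possible), and on TPM the ratios overlapped (exact p = 0.2). The 2 are similar neighbouring genes, Scd1 at chr19:44394455-44407879 and Scd2 at chr19:44293674-44306864 (GRCm38), and how many reads they share was not measured here.

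Of the export genes, Abca1, which loads cholesterol onto apolipoproteins at the cell surface, had 181, 159 and 141 CPM in KO, against 120, 117 and 134 CPM in WT. Every KO library was above every WT library, at a log2 fold change of 0.38 ± 0.11 (edgeR unadjusted p = 0.00927, adjusted p = 0.254). Npc1, which lets cholesterol leave lysosomes, had 26.5, 26.1 and 32.5 CPM in KO, against 28.5, 26.6 and 28.1 CPM in WT. The groups overlapped, with a 95% interval of the log2 fold change from -0.23 to 0.29.

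Seed matches to miR-216a-5p were looked for in the longest annotated 3' UTR of each gene. They were present in 10 of the 35 genes (28.6%), against 17.0% of 15069 tested genes, where the median UTR was 1498 bases for the list and 1201 bases for tested genes. Of these 10, Scd1 and Abca1 were higher and Cyp51, Elovl6 and Fads2 lower in KO at an unadjusted p under 0.05, and 5 had an unadjusted p of 0.05 or more. Scd1 had the most, 4 in a UTR of 3464 bases, and 31 tested genes had as many or more. The matches of Scd1 and Abca1, the higher genes, and of Cyp51, a lower gene with the longest form of match, are printed with the matched letters in capitals. For the first Scd1 match, base 821 is the letter before the capitals. The word site stands here for a match of letters, and binding was not tested.
Scd1 site at base 821: atcctctgaaccccaGAGATTA
Scd1 site at base 830: accccagagattagTGAGATTt
Scd1 site at base 3315: ttcccttccctgaaTGAGATTt
Scd1 site at base 3419: ctacttgtactgatTGAGATTg
Abca1 site at base 2977: tgcactggaatatcTGAGATTt
Cyp51 site at base 730: aaagtgtctgatttTGAGATTA

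A further microRNA, miR-33, lies within an intron of Srebf2 and is known to act on Abca1. It was added after the values were seen, was not measured in these libraries, and is shown with its seed in capitals (RefSeq, GRCm38.p6, chr15:82198127-82198147, plus strand).
mmu-miR-33-5p: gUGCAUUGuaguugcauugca
Abca1 site at base 135: gtactgacactattCAATGCAA
Abca1 site at base 140: gacactattcaatgCAATGCAc
Abca1 site at base 150: aatgcaatgcacttCAATGCAA

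These 3 matches lie together near the start of the Abca1 UTR, and those at bases 135 and 140 share letters. As many matches or more were held by 121 tested genes. Binding at these matches was not tested. Over the list 6 of 35 genes (17.1%) held a match to miR-33-5p, against 16.5% of tested genes. The 2 seeds differ, so the sets are separate except for Acaca and Abca1, which hold matches to both.

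The libraries did not move evenly within a group. Relative to the WT mean, the median of the 18 sterol enzymes was -0.40, -0.34 and -0.23 on the log2 scale in KO 1 to 3, against -0.16, 0.06 and 0.12 in WT 1 to 3. KO 1 was the lowest KO library for 12 of the 18 enzymes and KO 3 the highest for 13, and WT 1 was the lowest WT library for 14. The fatty acid enzymes had medians of -0.14, -0.28 and -0.15 in KO, against -0.06, 0.01 and 0.00 in WT, so KO 2 was lowest there. Without KO 1 the sterol median was -0.30 and the fatty acid median -0.23, and without WT 1 they were -0.35 and -0.25. Without KO 2 the sterol median was -0.32, but the mevalonate median was -0.17 and the fatty acid median -0.14.

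**Figure D3:**
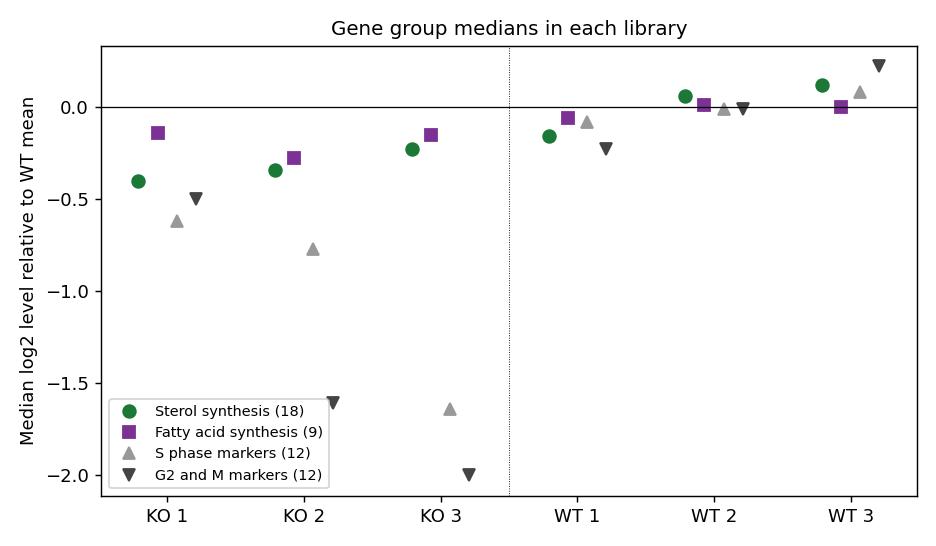
Median over each gene group of the log2 level relative to the WT mean (vertical axis), for each of the 6 libraries (horizontal axis), KO left of the dotted line. The sterol medians of KO lie between -0.40 and -0.23 and below all WT medians, and the cell cycle marker medians of KO lie further down, to -2.00 in KO 3.

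Several marker lists of other cell types and states differed in level between KO and WT in the same libraries, though no gene passed correction. The summed acinar, macrophage and erythroid markers overlapped between groups. Over all tested genes, 7.0% had an unadjusted p under 0.05 with a lower KO mean and 5.62% with a higher one. At any p, 48.8% had a lower KO mean. All 12 S phase markers and all 12 G2 and M markers had an unadjusted p under 0.05 with lower KO values, and their sums were 241 to 483 CPM in KO against 700 to 781 CPM in WT for S phase, and 204 to 591 CPM in KO against 748 to 950 CPM in WT for G2 and M. Relative to the WT mean, S phase medians were -0.62, -0.77 and -1.64 in KO 1 to 3, against -0.08, -0.01 and 0.08 in WT 1 to 3, and G2 and M medians were -0.50, -1.61 and -2.00 in KO, against -0.23, -0.01 and 0.22 in WT. Within KO, KO 3 had the lowest cell cycle medians and the highest sterol median, and within WT, WT 1 had the lowest and WT 3 the highest median of both cell cycle lists and of the sterol enzymes. Beta cell markers had a lower KO mean for 7 of 8 genes, at sums of 4271 to 4587 CPM in KO and 5475 to 6621 CPM in WT, and endothelial markers a higher one for 6 of 7, at 628 to 664 CPM in KO and 536 to 626 CPM in WT. Of 8 mesenchymal markers 5 had an unadjusted p under 0.05, with Col1a1, Col6a3 and Lum lower and Pdgfra and Pdgfrb higher in KO. Their sum was 6157 CPM in KO 2, against 9462 and 9846 CPM in the other KO libraries and 9656 to 11770 CPM in WT. The part of any of these in the sterol and fatty acid values was not tested.

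Beside Scd1, Abca1 and the fatty acid enzymes stand the adipocyte markers. Only 3 of 12, Fabp4, Lpl and Pparg, had enough reads to be tested, and all 3 were higher in every KO library, at a sum of 309 to 354 CPM in KO and 199 to 237 CPM in WT. The other 9 stayed at or below 0.762 CPM in every library. Among them Cidea averaged 0.412 CPM in KO, against 0.188 CPM in WT. For Cidec the KO mean was 0.0769 CPM, where the WT mean was 0.0134 CPM. In both, the lowest KO library lay only just above WT 2. For Cidea these libraries stood at 0.283 CPM (KO 1) against 0.281 CPM (WT 2). For Cidec they stood at 0.0508 CPM (KO 2) against 0.0401 CPM (WT 2). Both genes had too few reads to be tested, so no difference between the groups is read from them. Plin4 averaged 0.559 CPM in KO, against 0.079 CPM in WT, where the groups overlapped. Plin1 went the other way, with a KO mean of 0.339 CPM where WT averaged 0.425 CPM, and its groups overlapped too. The libraries of Retn and Ucp1 overlapped as well. Their KO means were 0.259 CPM for Retn and 0.0754 CPM for Ucp1, and their WT means 0.193 and 0.0474 CPM. The defining adipocyte gene Adipoq reached at most 0.0508 CPM in KO and 0 in WT, and Lep and Cfd had 0 reads in all libraries. The part of these markers in the lipid gene values was not tested.

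Per length, the list spanned a wide range of levels. Acly was the highest, at 76.9 ± 3.53 TPM in KO and 85.0 ± 18.02 TPM in WT, and ranked 1 of 35, followed by Scd2, Srebf1, Fasn and Hmgcs1. Hmgcs1 stood at 18.9 ± 3.35 TPM in KO and 27.8 ± 5.78 TPM in WT, and the lowest gene, Hsd17b7, at 1.71 ± 0.285 TPM in KO and 2.35 ± 0.881 TPM in WT (SD, n = 3 each). Scd1 and Elovl6 ranked 34 and 33, just above Hsd17b7.

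**Figure D4:**
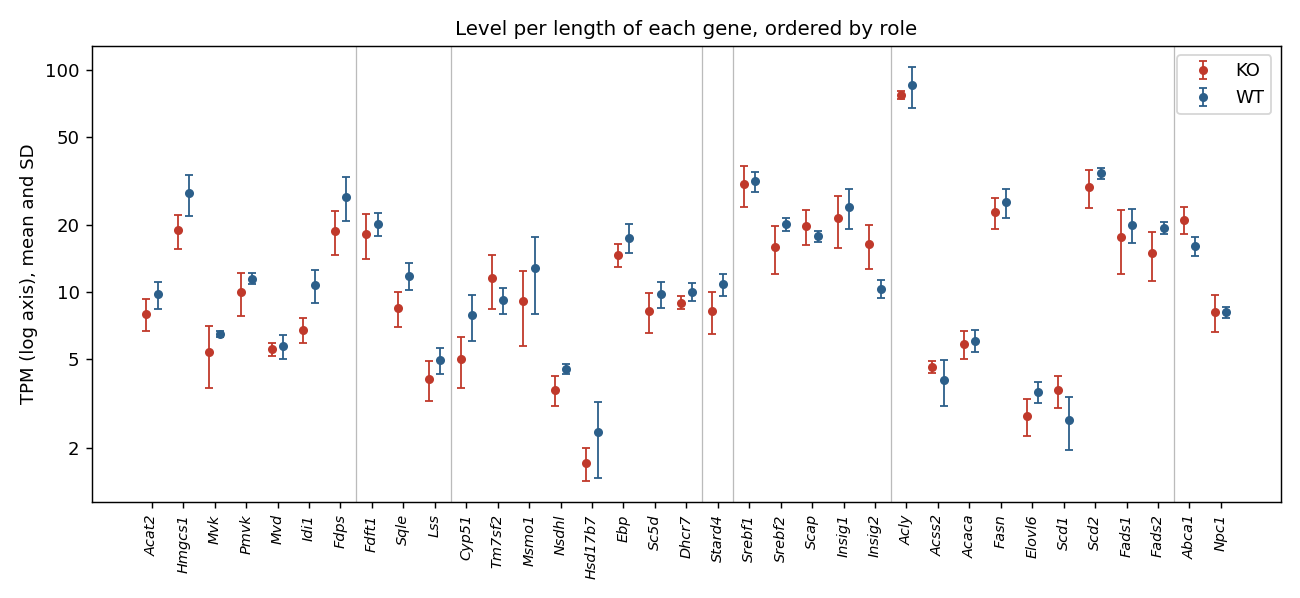
TPM of each of the 35 genes on a log axis, mean and SD over 3 libraries, KO in red left of WT in blue, genes ordered by role with grey lines between roles. Acly stands highest, at 80.95 TPM over all libraries, and Hsd17b7 lowest, at 2.03 TPM.

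Most transcript shares overlapped between groups. In 14 of the 35 genes at least 2 transcripts held over 10% of the reads, and 2 of their 32 transcripts had shares that did not overlap between groups. Acat2-201 held 98.2, 97.0 and 64.5% of the gene's reads in KO, against 61.4, 42.7 and 63.7% in WT, and Tm7sf2-201 held 52.5, 61.8 and 54.6% in KO, against 39.7, 49.4 and 42.0% in WT. KO 3 sat just above WT in Acat2 and the groups were closer in Tm7sf2. In genes with 1 main transcript, Insig2-201 held 87.5 to 93.8% in KO and 94.1 to 97.2% in WT, and Mvd-201 held 91.6 to 97.3% in KO and 100% in WT, both without overlap. The share of transcripts without overlap over all genes was not computed. With 3 libraries a group, such a separation reaches an exact permutation p of 0.1 at best, so these shares are a description only. For Srebf1, whose alternative promoters give different proteins, Srebf1-201 held 60.0 to 73.3% in KO and 60.3 to 73.6% in WT, and overlapped.

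Neighbouring steps were looked at for context. The counts of these short lists stand beside 7.0% of all tested genes with an unadjusted p under 0.05 and a lower KO mean, and 5.62% with a higher one. Of 7 further genes tied to sterol synthesis (Lbr, the electron carriers Por, Cyb5a, Cyb5b and Cyb5r3, and the SREBP-responsive genes Tmem97 and Mmab), 1 had an unadjusted p under 0.05. It was Lbr, a sterol reductase of the nuclear envelope, at 39.7, 43.5 and 43.7 CPM in KO against 52.0, 53.0 and 49.5 CPM in WT (log2 fold change -0.28 ± 0.09, edgeR unadjusted p = 0.0111, adjusted p = 0.258). Of 11 genes of the isoprenoid branches 0 had one, and of 10 genes of SREBP processing 0 did, with medians of 0.05 and 0.02.

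Among 20 tested genes of other fatty acid steps, 3 had an unadjusted p under 0.05, all lower in KO, while the median over the 20 was -0.02. Hsd17b12, a ketoacyl reductase of fatty acid elongation, had 23.6, 26.6 and 25.5 CPM in KO, against 35.9, 33.0 and 37.7 CPM in WT. The groups were well apart, at -0.49 ± 0.10 (edgeR unadjusted p = 0.00104, adjusted p = 0.205). Tecr, the enoyl reductase of elongation, had 65.1, 70.2 and 67.2 CPM in KO, against 81.1, 78.3 and 85.7 CPM in WT, at -0.28 ± 0.08 (edgeR unadjusted p = 0.0098, adjusted p = 0.258). Hacd1, an elongation dehydratase, was the other gene, at -0.46 (unadjusted p = 0.024). The other tested elongases and dehydratases of that list did not pass, with log2 fold changes of -0.49 for Elovl2, -0.23 for Hacd2, -0.17 for Elovl7, 0.00 for Elovl1, 0.04 for Elovl5 and 0.12 for Hacd3.

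Outside synthesis the list medians lay between 0.10 and 0.14. Of 8 tested genes of export and LXR response, 1 had an unadjusted p under 0.05, Mylip, an LXR-induced ubiquitin ligase for lipoprotein receptors, at 19.6, 24.0 and 21.7 CPM in KO against 14.3, 18.4 and 19.2 CPM in WT (log2 fold change 0.33, edgeR unadjusted p = 0.0498, adjusted p = 0.395). Of 5 lipoprotein uptake genes 1 did, Vldlr, a lipoprotein receptor, at 44.1, 43.3 and 78.7 CPM in KO against 38.5, 38.5 and 36.6 CPM in WT. KO 3 carried much of that difference (log2 fold change 0.55, edgeR unadjusted p = 0.0384, adjusted p = 0.364). Of 6 tested glycerolipid genes 1 had one, Dgat2, with overlapping groups, and of 9 genes of sterol esters and oxysterols 0 did.

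In the 6 fits that each left out 1 library, 8 of the 12 genes kept an unadjusted p under 0.05 throughout. They were Idi1, Hmgcs1, Cyp51, Sqle, Stard4 and Elovl6 on the lower side and Scd1 and Abca1 on the higher. The 12 were picked for a small p in these same libraries, which the fits reuse, so this is no independent support. How often other tested genes past that threshold did the same is not given. Without WT 1 and KO 2 together, the libraries richest in erythroid reads in their groups and a choice made after seeing the data, 0 genes on the higher side had one, with Abca1 at 0.36 (unadjusted p = 0.0632) and Scd1 at 0.31 (unadjusted p = 0.11). On the lower side 9 genes had one in that fit, but not the same 9, since Stard4 (-0.34, edgeR unadjusted p = 0.0505) and Fads2 no longer did and Hsd17b7 and Sc5d came in. The share of all tested genes in that fit is not given.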

How the data were processed

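The labels' genotype field put 3 libraries in each group, and replicate numbers follow sample order only. Per the submitters' processing notes, bcl2fastq, Salmon 0.13.1, DESeq2 1.24.0 and the build mm10 were used. The sources used here do not give Salmon's transcript set or strand setting. Per library the authors deposited Salmon's estimated counts, not normalized, and TPM for 116248 transcripts. Of these 115995 matched GENCODE M21 with equal length, and the others held 0.034 to 0.046% of reads and were left out. The authors also deposited a gene table that holds a scaled signal and not whole counts, used with limma on log2(value + 1) as an alternative only. Salmon's effective lengths, named per the file headers, served the length offset.

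Estimated counts were summed per gene (Python 3.11.15, pandas 2.3.3), rounded, and tested with edgeR 4.0.16 (R 4.3.3) by the quasi-likelihood test with TMM and filterByExpr, adjusted over 15805 genes. CPM and log2 fold changes come from this fit, and TPM was summed per gene. The biological coefficient of variation was 18.4%. All pairs of libraries differed beyond sampling noise (chi-square per degree of freedom 21.1 to 80.1). DESeq2 1.42.0, limma-voom 3.58.1, other scalings and filters, a length offset, protein-coding transcripts only and leaving out libraries were the alternatives. Removing WT 1 and KO 2 together was chosen after seeing the data. The genes, lists and named-gene rule were chosen with earlier results of these data known. Values by library are given for the control genes, Stard4, Fasn, the Scd genes and export genes, for the 3 genes with the smallest p of each role, and for up to 2 genes with an unadjusted p under 0.05 and no overlap of each other list. Acly, Tm7sf2, Hacd1 and Dgat2 were named after their values were seen. Some genes of the pathway are not reported here. Of the 35 genes 13 share exonic bases with another annotated gene, and 6 of them more than 5%. Among these 6, the other gene is on the same strand for Fdps and Tm7sf2. It is on the opposite strand for Fdft1, Hmgcs1, Idi1 and Scap. Salmon's strand setting is not given, so part of the reads of any of the 6 could belong to the other gene. RefSeq promoters and microRNAs were matched by symbol or name, and 3' UTRs were read from GENCODE M21.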

Additional observations from a re-analysis of the deposited data

How the results depend on the processing

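The 23 genes followed here are those named by rule and Acly, and part of them were picked for a small p in these same libraries. The alternatives refit those libraries, so a kept direction is no independent support. Over 17 alternatives, 386 of 391 log2 fold changes of the 23 genes kept their direction. The 5 reversed ones were near 0, with Npc1 at -0.02 with the length offset and -0.03 in the authors' scaled table and, leaving out 1 library, from -0.08 (without KO 3) to 0.09, Lss from -0.25 to 0.04 (without KO 1) and Srebf1 from -0.22 to 0.00 (without WT 3). Genes called by adjusted p numbered 0 in the reported fit, 1 without a filter, 436 with DESeq2, 2 with limma-voom, 2 without WT 1 and KO 2 together, and 0 to 362 when 1 library was left out, the highest without KO 1. Of the 35 genes 3 were called with DESeq2 and 0 to 1 when 1 library was left out. Genes of the list at an unadjusted p under 0.05 numbered 6 to 13 on the lower side, the fewest without WT 3 and the most without KO 3. On the higher side they numbered 2 to 3, but 0 without WT 1 and KO 2 together. The shares of all tested genes in these fits are not given. These counts therefore cannot be set against the 7.0% and 5.62% of the reported fit. With 1 library left out the medians ran from -0.36 to -0.24 for sterol enzymes, from -0.43 to -0.17 for mevalonate enzymes and from -0.27 to -0.14 for fatty acid enzymes, both last values without KO 2, and from -0.22 to 0.00 for the control genes, the last without WT 3. The fatty acid median was also -0.14 without WT 1 and KO 2 together. Srebf2 had an unadjusted p under 0.05, and Scd1 and Acly did not, with the length offset and in the authors' scaled table. The cause of these shifts was not tested. No paired analysis was possible because the labels give no replicate numbers, and those used here follow sample order. With 3 libraries a group an exact permutation test cannot go below p = 0.1.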
